A study of Mus musculus with 27 samples.

Results

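The light response of the suprachiasmatic nucleus (SCN), the hypothalamic nucleus that paces daily rhythms and receives light input from the retina, was profiled by small-RNA sequencing at circadian time (CT) 18 h in 2 libraries named CTRL and 2 named LP, 4 of the 27 libraries of the series. All 4 came from SCN tissue of C57BL/6 mice, with total RNA as the starting material, and no further allele or agent is named for either group. LP is not written out in the labels and is read here as a light pulse, since the series design names light-response miRNAs as an aim. The labels give no duration or brightness of a pulse, no delay between pulse and dissection, no age, and no statement that the libraries come from separate animals or pools. The p-values therefore measure the spread between these libraries, which may be technical. Of 844 miRNAs named in the series, 676 were listed in at least 1 of the 4 libraries and 317 had at least 10 CPM in at least 2 of them and were tested. Another 359 were listed below that minimum, and 168 were at 0 in all 4. Levels are in CPM, the deposited value (reads scaled to 10000000 per library) divided by 10.

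A miRNA is a short RNA that guides Argonaute proteins to messenger RNAs, mainly through its seed (bases 2 to 8), and lowers their translation or stability. Light at night reaches the SCN through the retinohypothalamic tract, whose glutamate release activates CREB, and CREB turns on immediate early genes, Per1 and the transcript that carries miR-132 and miR-212. miR-132 is best known in the SCN as a light-inducible modulator of clock resetting, and miR-219 as a miRNA tied to the length of the circadian period. The question asked of the data is which miRNAs differed between LP and CTRL at this phase of the subjective night.

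The sequences that matter most for the comparison are given here 5′ to 3′ from RefSeq (GRCm38.p6), where 271 of the 317 tested miRNAs (85.5%) were matched by name, with the seed in capitals. miR-132-3p and miR-212-3p are shown because they are the light-inducible pair and carry one and the same seed, AACAGUC, so they address the same seed matches in messenger RNAs. Their other arms follow, since each arm was measured separately.

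miR-132-3p: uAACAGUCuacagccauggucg
miR-212-3p: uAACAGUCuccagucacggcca
miR-132-5p: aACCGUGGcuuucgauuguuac
miR-212-5p: aCCUUGGCucuagacugcuuacu

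The next 3 are made from one gene cluster on chromosome 6 and have been described as light-dependent in retina. They are shown because their levels split the libraries by replicate rather than by group.

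miR-183-5p: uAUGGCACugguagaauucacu
miR-182-5p: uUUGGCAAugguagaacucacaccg
miR-96-5p: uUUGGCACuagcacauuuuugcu

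The last 6 are miR-488-3p, which had the smallest p of all tested miRNAs, miR-411-5p and miR-337-3p of the imprinted region on chromosome 12, the pair miR-7a-5p and miR-7b-5p with their shared seed GGAAGAC, and miR-125a-5p. The latter 3 are examples of a level set by a single LP library.

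miR-488-3p: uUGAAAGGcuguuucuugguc
miR-411-5p: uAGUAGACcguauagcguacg
miR-337-3p: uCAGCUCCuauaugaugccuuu
miR-7a-5p: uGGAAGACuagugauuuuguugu
miR-7b-5p: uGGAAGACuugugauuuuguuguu
miR-125a-5p: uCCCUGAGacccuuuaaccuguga

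The libraries held 1777244 and 1931919 miRNA reads in CTRL and 1766808 and 2939619 in LP, listing 552 to 589 miRNAs each. At these depths a count of 0 allows a level of up to 1.02 to 1.7 CPM (3 reads), counting error only. The 10 most abundant miRNAs held 65.8% and 65.3% of the reads in CTRL and 60.2% and 66.3% in LP. LP replicate 1 stood apart. Its median absolute log2 difference from LP replicate 2 across the 317 miRNAs was 0.389, the largest of the 6 pairs, and 38 miRNAs were beyond 2-fold between these replicates. CTRL replicates 1 and 2 differed by 0.22 (16 beyond 2-fold), and LP replicate 2 differed from CTRL replicate 2 by 0.161 (7 beyond 2-fold), the smallest of the 6. LP replicate 1 had the highest level of the 4 libraries for 164 miRNAs (51.7%). Its median log2 difference from the CTRL mean was 0.17, where that of LP replicate 2 was -3.88e-05. Results are therefore given with and without it.

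**Figure D1:**
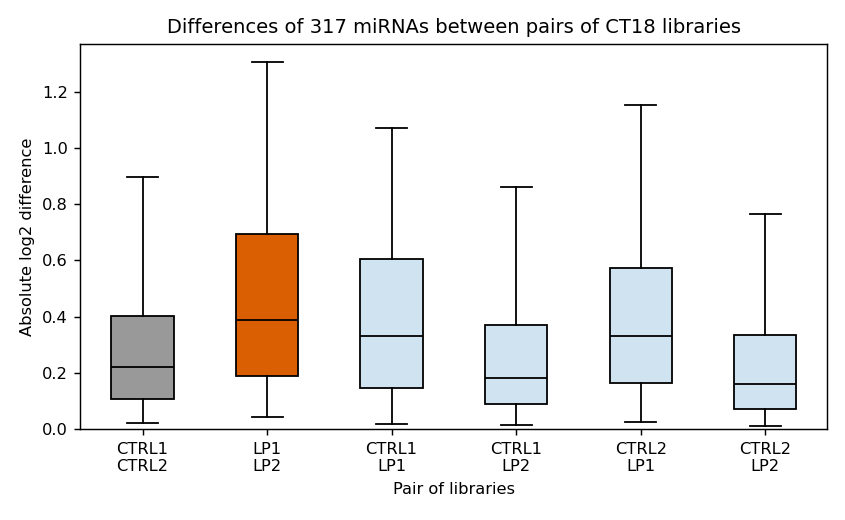
Absolute log2 differences (vertical axis) of the 317 tested miRNAs between each pair of the 4 CT18 libraries (CTRL1, CTRL2, LP1 and LP2 are the replicates), with the box from the lower to the upper quartile, the line at the median and whiskers from the 5th to the 95th percentile. The pair of LP replicates has the highest median (0.389), and CTRL replicate 2 with LP replicate 2 the lowest (0.161).

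No miRNA passed the test between LP and CTRL. By limma-trend on log2(value + 1), 0 of 317 had an adjusted p under 0.05 (Benjamini-Hochberg, two-sided; 0% called). The smallest adjusted p was 0.992, and 1 miRNA (0.315%) had an unadjusted p under 0.05. edgeR and DESeq2 on the reads recovered from the values called 0 as well, with 1 and 0 miRNAs at an unadjusted p under 0.05. The log2 differences ran from -0.74 to 1.22, with quartiles at -0.04 and 0.19, and were above 0 for 211 miRNAs (66.6%) and below 0 for 106 (33.4%). Only 3 differed by more than 2-fold and 15 by more than 1.5-fold. Both LP libraries lay above both CTRL libraries for 48 miRNAs (15.1%) and below both for 11 (3.47%), so 59 of 317 (18.6%) did not overlap. The median log2 difference over all 317 was 0.07, and median-ratio scaling brought it to -0.01, with 154 miRNAs above 0.

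With 2 libraries a group the fit had 6.29 degrees of freedom, and the median standard error of a log2 difference was 0.286. At that error a single miRNA would need a log2 difference of 2.29, or 4.9-fold, to be called alone. The intervals still bound many differences between these libraries on the deposited scale. The 95% interval lay wholly within 2-fold in either direction for 190 miRNAs (59.9%) and reached beyond 2-fold for 127 (40.1%). It lay within 2-fold for 136 of the 161 with a mean of at least 100 CPM. Among those 161, log2 differences ran from -0.37 to 0.65.

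**Figure D2:**
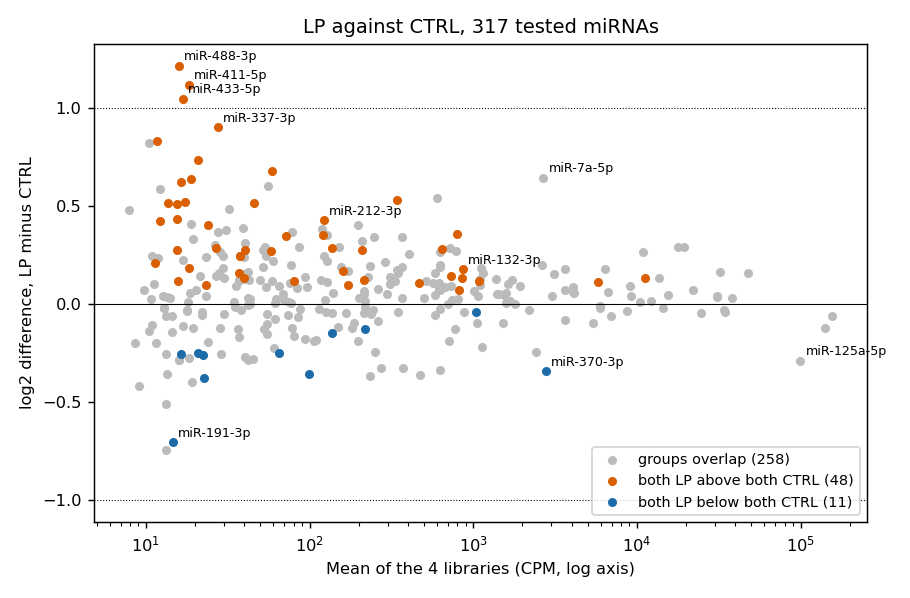
Log2 difference of LP minus CTRL (vertical axis) against the mean level of the 4 libraries in CPM (horizontal log axis) for the 317 tested miRNAs, 1 point each. Orange points (48) have both LP libraries above both CTRL libraries, blue points (11) both below, and dotted lines mark 2-fold. The 3 miRNAs beyond 2-fold, miR-488-3p, miR-411-5p and miR-433-5p, all have mean levels under 20 CPM.

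The miR-132 and miR-212 genes lie next to each other on chromosome 11 (GRCm38, plus strand), miR-212 at 75173388 to 75173478 and miR-132 at 75173682 to 75173747, both within an intron of the noncoding transcript 1700016P03Rik. miR-132-3p stood at 757 and 862 CPM in CTRL and at 953 and 879 in LP. Both LP libraries were above both CTRL libraries, but LP replicate 2 exceeded CTRL replicate 2 by less than the CTRL replicates differed between themselves. The log2 difference was 0.18 (95% interval -0.30 to 0.66, 0.814 to 1.58-fold; unadjusted p = 0.396 and adjusted p = 0.992 by limma), 0.12 without LP replicate 1 and 0.05 after quantile normalization.

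miR-212-3p, the partner with the same seed, was at 103 CPM in each CTRL library and at 164 and 117 in LP. The groups did not overlap, and most of the difference sat in LP replicate 1. The log2 difference of 0.43 (interval -0.19 to 1.05, up to 2.07-fold; limma adjusted p = 0.992) was 0.19 without that library.

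The 5p arms of the same precursors showed less. miR-132-5p was at 81.6 and 71.4 CPM in CTRL and at 81.0 and 72.5 in LP, which gave a log2 difference of 0.0057. miR-212-5p, the most abundant of the 4 at this locus, was at 2450.3 and 2415 CPM in CTRL and 3215 and 2424 in LP. Only LP replicate 1 stood above the other 3 libraries, and the log2 difference was 0.20 (interval -0.30 to 0.70). Across the 4 products of the locus, 2 had separated groups (18.6% of all tested miRNAs did). All 4 had a log2 difference above 0 on the deposited scale (66.6% of all), while miR-132-5p was at -0.07 under median-ratio scaling. The 4 products come from the same libraries and are not separate observations.

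The other miRNAs linked to light or neuronal activity came from a list of 18, of which 17 were tested and miR-211-5p was not (1.1 to 5.6 CPM). None of the 17 was called, 3 had both LP libraries above both CTRL libraries (17.6%, against 15.1% of all tested) and none both below. Of the list 13 were above 0, with a median log2 difference of 0.06 against 0.07 over all miRNAs, but only 7 under median-ratio scaling, where the list's median was -0.02. For 11 of the 17 the 95% interval lay within 2-fold. miR-23a-3p was the third whose groups were apart, at 823 and 782 CPM in CTRL and 832 and 855 in LP (log2 difference 0.07, and -0.01 under median-ratio scaling).

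miR-219-5p, the period-linked miRNA that is also abundant in oligodendrocytes, was at 25.9 and 37.2 CPM in CTRL and 27.7 and 24.5 in LP. The groups overlapped, and the log2 difference was -0.25 (interval -1.07 to 0.56). miR-134-5p, a dendritic miRNA that limits spine size, was at 129 and 142 against 149 and 133 CPM. miR-138-5p, another miRNA of dendritic spines, was at 249 and 246 against 263 and 223 CPM. Neither pair of groups was separated. miR-124-3p, the main miRNA of neurons, was at 33740 and 27222 CPM in CTRL and 38522 and 29993 in LP, with overlapping groups and a log2 difference of 0.17 (interval -0.30 to 0.63).

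In the sensory cluster, miR-183-5p was at 18.5 and 26.9 CPM in CTRL and at 17.5 and 47.6 in LP. miR-182-5p was at 12.3 and 22.7 against 7.9 and 43.2 CPM, and miR-96-5p at 7.8 and 19.1 against 8.4 and 18.7. In each case replicate 2 was above replicate 1 in both groups, and the groups overlapped. The intervals were accordingly wide, reaching -1.82 to 2.11 on the log2 scale for miR-182-5p. miR-204-5p, a miRNA of retinal pigment epithelium and choroid plexus, had the same order at 1173 and 1515 CPM in CTRL and 980.5 and 1955 in LP. miR-146a-5p, a regulator of innate immune signalling, was at 1805 and 1490.4 CPM in CTRL and 1337 and 2056 in LP, so that the LP libraries lay on either side of both controls.

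**Figure D3:**
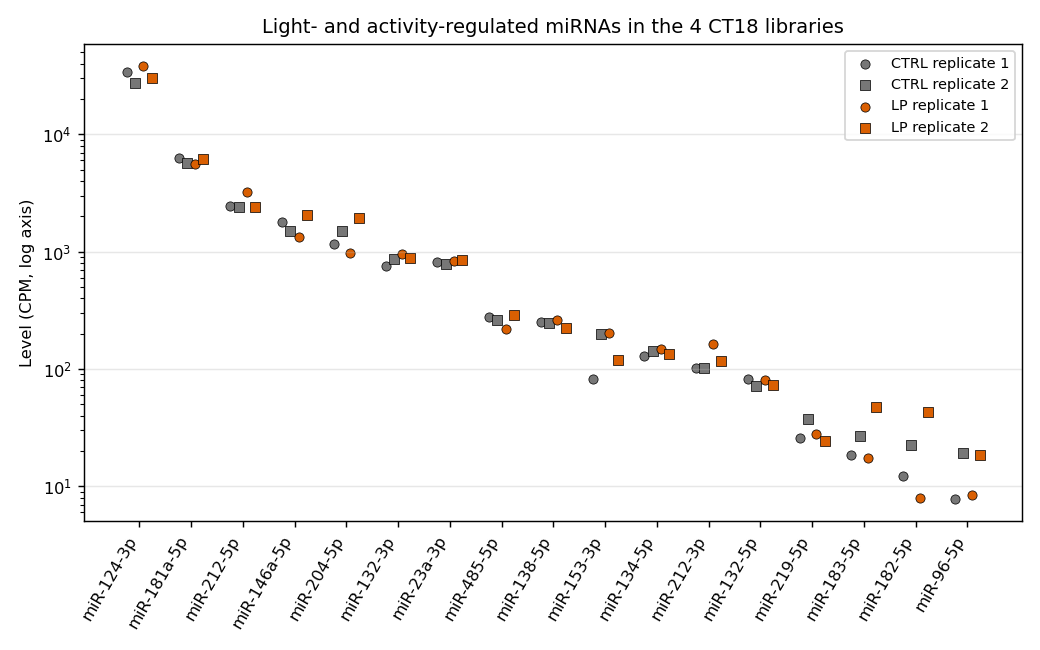
Level in CPM (log axis) of the 17 tested light- and activity-regulated miRNAs in each of the 4 libraries, grey for CTRL and orange for LP, circles for replicate 1 and squares for replicate 2. The groups are separated only for miR-212-3p, miR-132-3p and miR-23a-3p, while miR-183-5p, miR-182-5p, miR-96-5p and miR-204-5p have the square above the circle in both groups.

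The smallest p of the comparison, 0.0292, belonged to miR-488-3p, which lies in an intron of Astn1 on chromosome 1 (158505625 to 158505733). It was at 7.8 and 11.3 CPM in CTRL and 25.4 and 19.0 in LP, from 14, 22, 45 and 56 reads. Both LP libraries were above both controls, with a log2 difference of 1.22 (interval 0.17 to 2.27; limma adjusted p = 0.992). It is named because it was the one miRNA under 0.05, a choice made after the values were seen. Its adjusted p was at least 0.146 in every setting tried in which it was tested. Without LP replicate 1 its log2 difference was 1.01.

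Among miRNAs at 50 CPM or more in their higher group, those with the smallest p on the higher side of LP were led by miR-24-3p (36.6 and 52.8 against 93.4 and 53.1 CPM), miR-212-3p and miR-409-5p (258 and 290 against 534 and 292 CPM). In miR-24-3p and miR-409-5p, LP replicate 2 exceeded the higher control by under 3 CPM. miR-221-3p, encoded on the X chromosome with miR-222, was at 714 and 661 CPM in CTRL and 1055 and 735 in LP (log2 difference 0.36, interval -0.22 to 0.94). Its other arm, miR-221-5p, was also higher in both LP libraries, at 196 and 181 against 250 and 209 CPM, whereas miR-222-3p, which shares the seed of miR-221-3p, was at 1540 and 2059 against 1517 and 2099 CPM. miR-467a-5p (108 and 103 against 156 and 115 CPM), miR-673-3p (45.6 and 30 against 57.7 and 48.6) and miR-760-3p (56.3 and 69.4 against 73.0 and 87.1) were likewise apart. For miR-760-3p LP replicate 2 was the highest of the 4 libraries.

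On the lower side of LP, miR-370-3p of the imprinted region had the smallest p. It was at 3061 and 3100 CPM in CTRL and 2144 and 2759 in LP, both LP libraries below both controls, with a log2 difference of -0.34 (interval -0.82 to 0.14; limma adjusted p = 0.992) and -0.16 without LP replicate 1. miR-671-3p (114 and 107 against 71.3 and 105 CPM) and miR-344d-3-5p (72.0 and 68.3 against 54.9 and 63.6) were also below in both. The remaining members of this side, miR-151-3p, miR-125a-5p, miR-667-3p, miR-150-5p, miR-365-3p, miR-484 and miR-320-3p, had overlapping groups. For 6 of these 7, miR-320-3p being the exception, LP replicate 1 was the lowest library and LP replicate 2 lay at or near the controls.

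**Figure D4:**
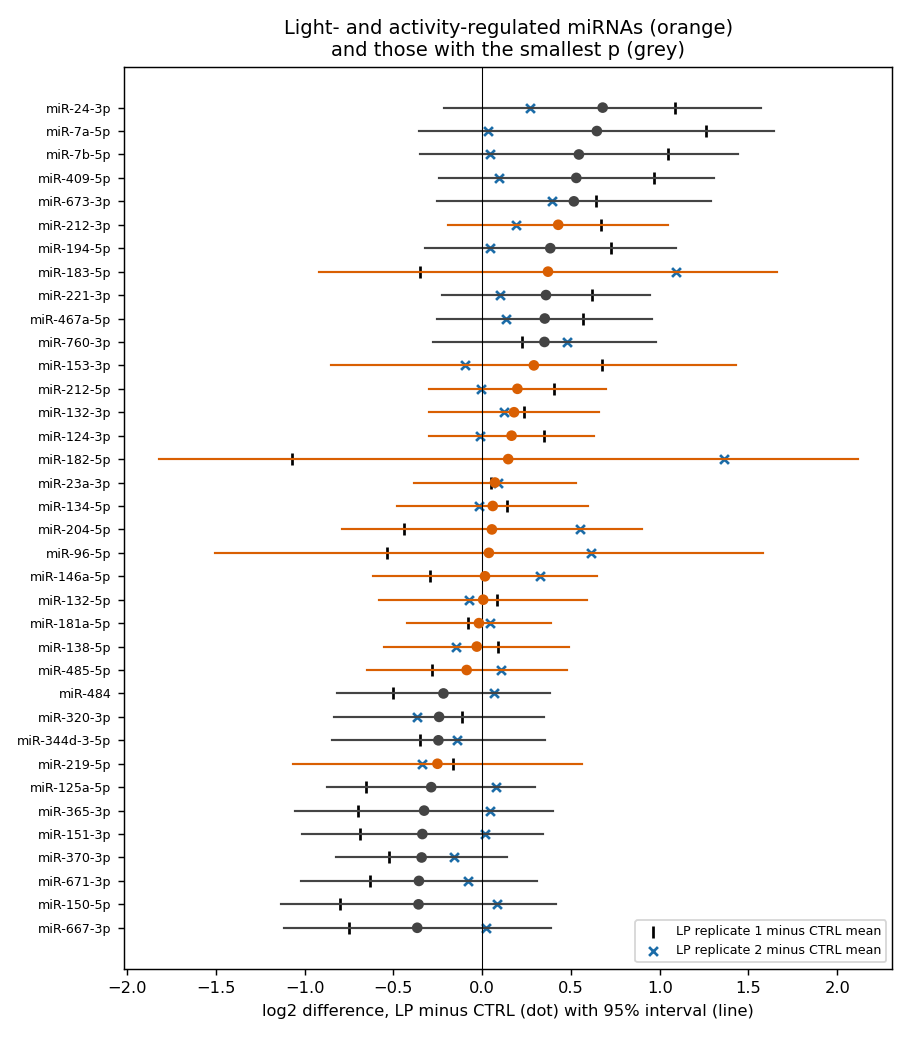
Log2 difference of LP minus CTRL (dot) with its 95% limma interval (line). Orange marks the 17 light- and activity-regulated miRNAs. Grey marks the 10 smallest p on each side among miRNAs with a mean of at least 50 CPM in the higher group. miR-212-3p belongs to both and is orange, and miR-488-3p, below that minimum, is not shown. Bars and crosses mark LP replicates 1 and 2 each minus the CTRL mean, and all the intervals shown include 0.

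LP replicate 1 alone set several of the larger differences. miR-7a-5p was at 1642 and 2357 CPM in CTRL, 4709 in LP replicate 1 and 2012 in LP replicate 2, and miR-7b-5p followed it at 392 and 558 against 965 and 482 CPM. In both, LP replicate 2 lay between the controls. miR-125a-5p, the third most abundant miRNA, was at 104913 and 110192 CPM in CTRL, 68424 in LP replicate 1 and 113471 in LP replicate 2. let-7g-5p was at 18099 and 15848 against 27833 and 15412 CPM. When LP replicate 2 was left out, so that LP replicate 1 stood alone against CTRL with the spread of the controls, limma called 25 miRNAs, 20 higher and 5 lower. These were led by miR-7a-5p with a log2 difference of 1.26 (adjusted p = 9.02e-06). Leaving out LP replicate 1 gave 0 calls, with a log2 difference of 0.03 for miR-7a-5p and 0.08 for miR-125a-5p.

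The dissected tissue was described by its markers. The summed level of 18 SCN-enriched miRNAs, a list drawn up with the tissue results of the series known, was 115100 and 121800 CPM in CTRL, 77730 in LP replicate 1 and 125300 in LP replicate 2. Beside these stood 146400 and 137300 in SCN tissue and 41050 and 38970 in hypothalamus. Without miR-125a-5p, which makes up most of the sum, it was 10230 and 11610 in CTRL and 9308 and 11800 in LP, against 18790 and 16730 in SCN tissue and 5523 and 5699 in hypothalamus. LP replicate 1 was then below the lower control by less than the controls differed between themselves. Of the 14 tested members, the median log2 difference from the CTRL mean was -0.19 in LP replicate 1 and 0.24 in LP replicate 2. The tissue libraries belong to another part of the series, from which some miRNAs are far apart at CT18. miR-7a-5p was at 39040 and 36210 CPM in SCN tissue, against 1642 to 4709 at CT18. The sums therefore give no measure of dissection purity. Across the 317 miRNAs the difference of LP replicate 1 from LP replicate 2 correlated with that of hypothalamus from SCN at a Pearson r of 0.467 (Spearman 0.509), where the same value for the CTRL replicates was 0.04 (0.0569). These describe 4 CT18 libraries, and miRNAs of 1 library share its depth and preparation. The part of dissection in the LP comparison was not tested. In bulk tissue, fewer cells of a type and less of a miRNA per cell cannot be told apart.

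Other cell types were followed by their own lists. Vascular miRNAs summed to 1381 and 1178 CPM in CTRL and 1802 and 1148 in LP, with 7 of 9 tested members above 0 on the log2 scale (66.6% of all tested miRNAs were), 5 of 9 under median-ratio scaling. Of these 9, 1 had both LP libraries above both controls (15.1% of all) and 1 both below (3.47% of all). Erythrocyte miRNAs (3 tested, led by miR-486-5p and miR-451a) summed to 757 and 662 against 685 and 854 CPM, and oligodendrocyte miRNAs (5 tested) to 2292 and 2463 against 2422 and 2456. Microglial and leukocyte miRNAs (4 of 8 tested) summed to 8426 and 7936 against 7661 and 8545 CPM. Most of this sum was miR-342-3p (6098 and 5854 against 5971 and 5890), followed by miR-146a-5p, which is also on the light list. Of the members that define these cells, miR-142-3p was at 0 in 3 libraries and at 0.5 CPM in LP replicate 1. miR-142-5p was at 2.2 and 5.6 against 6.2 and 5.7 CPM, and miR-223-3p was at 1.1 and 0.5 against 0 and 8.5 CPM. Muscle miRNAs (1 of 5 tested, miR-133a-3p) summed to 20.7 and 32 against 23.5 and 31.8 CPM, with miR-206-3p at 0 in 3 libraries and at 1.1 CPM in LP replicate 1. None of these lists held a called member, and the part of these cells in the differences was not tested.

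Clock-linked miRNAs, those reported to target core clock genes or their regulators, numbered 34, of which 25 were tested. None was called, 5 had both LP libraries above both controls (15.1% of all tested miRNAs did) and 1 both below (3.47% of all). The median log2 difference was 0.13 (0.05 under median-ratio scaling), against 0.07 over all. The 5 were miR-132-3p, miR-24-3p, miR-494-3p, miR-25-3p and miR-181d-5p, and the 1 below was miR-29b-3p (23.6 and 27.9 against 20.9 and 18.7 CPM). miR-29a-3p, which shares its seed and targets Per1 in other tissues, was at 167 and 202 against 275 and 191 CPM with overlapping groups. miR-194-5p, another regulator of Per genes in culture, was at 98.5 and 105 against 168 and 105 CPM. By library, the list's median was 0.44 in LP replicate 1 and 0.04 in LP replicate 2.

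The imprinted Dlk1-Dio3 region on chromosome 12, a large miRNA cluster expressed from the maternal chromosome and abundant in brain, gave 41 tested miRNAs of 48 listed. None was called. Of the 41, 31 were above 0 (24 under median-ratio scaling), where 66.6% of all tested miRNAs were. In 9 both LP libraries were above both controls (15.1% of all) and in 1, miR-370-3p, both below (3.47% of all). The list's median was 0.09 on the log2 scale, 0.22 for LP replicate 1 and 0.02 for LP replicate 2. The largest differences were among its rarest members. miR-411-5p was at 7.8 and 16 CPM in CTRL and 28.8 and 20.7 in LP (log2 difference 1.12, interval -0.06 to 2.30). miR-337-3p was at 14.6 and 24.3 against 39.0 and 32.0 CPM (0.90, interval -0.02 to 1.82), and miR-377-3p at 19.1 and 12.4 against 27.7 and 23.8 CPM. All 3 were higher in both LP libraries, by log2 differences of 0.73 to 1.12. Abundant members differed less, with log2 differences of 0.53 for miR-409-5p, 0.29 for miR-127-3p, -0.34 for miR-370-3p and -0.37 for miR-667-3p. miR-409-3p, the other arm of miR-409-5p, was at 520 and 684 against 637 and 648 CPM. miR-411-3p, the other arm of miR-411-5p, was at 818 and 964 against 781 and 958 CPM, with a log2 difference of -0.04. miR-433-5p, named after its values were seen as the third miRNA beyond 2-fold, was at 10.1 and 9.8 against 35.1 and 12.2 CPM, and its difference rested on LP replicate 1.

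The abundant families differed little. The 9 members of the let-7 family, which share the seed GAGGUAG, had log2 differences from -0.06 to 0.29 and a median of 0.04, none apart between groups, and the 95% interval of all 9 lay within 2-fold. The median was -0.04 under median-ratio scaling. The 5 tested miR-30 members had differences from 0.04 to 0.09 on the deposited scale, with all 5 intervals within 2-fold, and a median of -0.01 under median-ratio scaling. miR-26a-5p, the most abundant miRNA, took 15.8% and 15.95% of the reads in CTRL and 14.2% and 16.3% in LP, and miR-125b-5p 14.6% and 14.7% against 12.02% and 15.1%. Both had their lowest share in LP replicate 1.

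Arms of one precursor and miRNAs of one seed offered a second view of each locus. Both arms were tested for 68 precursors, and 38 of these had the same sign of difference in both arms. Of all tested miRNAs, 66.6% were above 0 and 33.4% below, so unrelated miRNAs also share a sign often. The Pearson correlation of the arms' differences was 0.0961 (Spearman 0.175, n = 68 precursors, all from the same 4 libraries). Groups were apart in the same direction for both arms in 4 precursors, miR-221, miR-361, miR-377 and miR-425, of which miR-361 and miR-425 were named after their values were seen. Taken singly, 15.1% of all tested miRNAs had both LP libraries above both controls and 3.47% both below. miR-488 was among those whose arms differed, with -0.11 for the 5p and 1.22 for the 3p arm. Among the 271 miRNAs with a RefSeq sequence, 27 seeds were shared by at least 2 tested entries. miR-132-3p and miR-212-3p were a pair of this kind in which both members had both LP libraries above both controls. The entries miR-199a-3p and miR-199b-3p have one and the same mature sequence and equal values in every library, 34.9 and 34.1 against 40.7 and 41.1 CPM, so they count as a single miRNA.

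The CT18 libraries were also set beside the SCN time course, 11 libraries taken every 4 h, as a description with no test between the experiments. miR-132-3p ran from 222 CPM (ZT26) to 620.0 (ZT6) in the course, and all 4 CT18 libraries were above that range, CTRL included. miR-212-3p, from 66.9 to 183 CPM in the course, lay within it in all 4. miR-212-5p (4467 to 6699 CPM) and miR-204-5p (2593 to 4696 CPM) were below the course in all 4. The highest level of miR-132-3p in the course was 2.8-fold its lowest, a range over 11 single libraries that also holds their noise. LP and CTRL differed by 1.13-fold between groups of 2 libraries, so these values are unlike measures.

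This offset reached far beyond these miRNAs. The 369 miRNAs set beside the course had at least 10 CPM in at least 2 CT18 libraries or in a few course libraries. They hold the 317 tested miRNAs and others that entered only through the course. All 4 CT18 libraries were above all 11 course libraries for 79 and below all 11 for 68, together 39.8%. The CT18 mean was more than 10-fold below the course median for 31. A miRNA could enter by being high in only 1 of the experiments, so these counts are partly set by the rule of entry. miR-24-3p stood at 36.6 to 93.4 CPM at CT18 and at 7289 to 11140.0 in the course, miR-7a-5p at 1642 to 4709 against 9000.0 to 40340.0, miR-411-5p at 7.8 to 28.8 against 191 to 324, and miR-488-3p at 7.8 to 25.4 against 171 to 326. Some other miRNAs with large LP differences were not below the course. miR-337-3p had a mean of 27.5 CPM at CT18 and a median of 28.3 in the course. miR-377-3p was higher at CT18, at 20.75 against 8.1, with 3 of the 4 CT18 libraries above the whole course. On the log2 scale, CT18 libraries correlated with course libraries at r from 0.799 to 0.843 across miRNAs, and among themselves at 0.975 or more. The course included ZT18 and ZT42, where miR-24-3p was at 8640 and 9108 CPM, and the part of phase was not tested. Lighting and the making of the libraries cannot be told apart between the experiments.

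**Figure D5:**
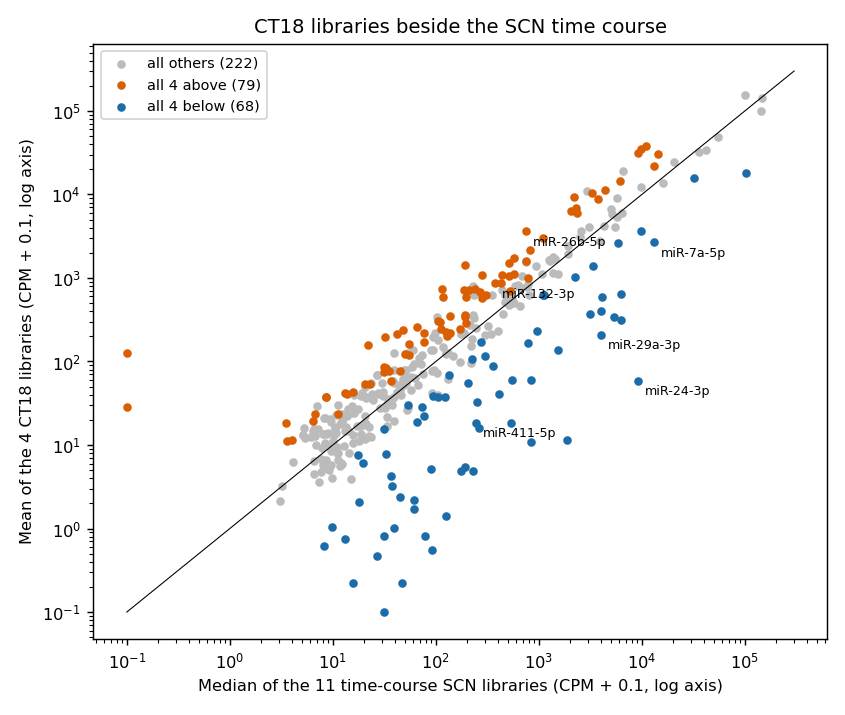
Mean level of the 4 CT18 libraries (vertical axis) against the median of the 11 time-course SCN libraries (horizontal axis), both in CPM + 0.1 on log axes, 1 point for each of 369 miRNAs, with the line of equality. Orange points (79) have all 4 CT18 libraries above all course libraries and blue points (68) all 4 below, with miR-24-3p, miR-7a-5p, miR-29a-3p and miR-411-5p among the latter. Both counts are partly set by the rule of entry, which a miRNA high in only 1 of the experiments could meet.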

How the data were processed

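The deposited signal of a miRNA is its reads, scaled by the authors to 10000000 in all and rounded down, as the values themselves show (CT18 totals exceed this by 7887 to 8851). Bowtie and GRCm38 (mm10) are named per the submitters' processing notes, without version or role. Unlisted miRNAs were set to 0, and the sum of the recovered whole reads gave each library's depth. Entries with equal or near-equal values in every library, such as miR-199a-3p and miR-199b-3p or miR-486-5p and miR-3107-5p, may share reads and are uncertain. Only miRNAs that reached a value of 100 (10 CPM) in 2 or more of the 4 libraries were tested, which held at least 99.92% of each library. LP minus CTRL was fitted with limma-trend (limma 3.58.1, R 4.3.3) on log2(value + 1), so log2 differences of rare miRNAs are slightly understated. edgeR 4.0.16 and DESeq2 1.42.0 on recovered reads were alternatives. All 3 were also run on simulated counts with large changes and no outlying library, which gives no measure of their power in these data. Precursor positions are from RefSeq (GRCm38.p6), and the genes that overlap them are from GENCODE M21.

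Named were the 10 smallest p on each side among miRNAs with a mean of at least 50 CPM in the higher group, the 10 most abundant, all tested light- and activity-regulated miRNAs, up to 4 of each other list, and their other arms and seed partners. The miRNAs and lists were chosen with earlier results of these data known. Lists were neuronal, SCN-enriched, clock-linked, imprinted, let-7, miR-30, miR-29, oligodendrocyte, vascular, erythrocyte, microglial and leukocyte, choroid plexus, muscle, and pituitary and endocrine miRNAs. None of the lists had a called member. The median log2 difference was 0.04 for neuronal (17 tested), 0.19 for pituitary and endocrine (7) and 0.05 for choroid plexus miRNAs (5). It was 0.0025 for microglial (4) and -0.03 for miR-29 miRNAs (2), and -0.04 for the 1 tested muscle miRNA.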

Additional observations from a re-analysis of the deposited data

How the results depend on the processing

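The count of called miRNAs stayed at 0 under another pseudocount (10), no filter (676 tested), a filter at a value of 1000 (163 tested), median-ratio scaling, quantile normalization, edgeR, DESeq2, limma without a variance trend and a spread shared with the tissue libraries (smallest adjusted p 0.146, 9 miRNAs at an unadjusted p under 0.05). With the replicate number as a block it was 0 too. The labels give only shared numbers, and the deviations of same-numbered libraries correlated at 0.25 with only 2 pairs, so the numbers were not taken as pairs. Leaving out each library in turn gave 0 to 25 called miRNAs, the 25 without LP replicate 2, where the lone LP library is assumed to vary like the controls. miRNAs whose groups did not overlap numbered 129 with no filter, 23 with the stricter filter and 158 to 245 when a library was left out, since fewer libraries separate more easily, against 59. For the 109 named miRNAs, 1437 of 1489 log2 differences under an alternative kept their call and moved by less than the within-group spread. Much of this count was fixed in advance. With 2 libraries a group, leaving 1 out cannot move a difference by more than that spread. Dropping the variance trend, adding the block or sharing the spread leaves the difference as it was. For example, miR-7a-5p went from 0.65 to 0.03 without LP replicate 1 and still counted as within the spread. Another 39 moved lower under other scalings or count tests. miR-212-3p without LP replicate 1 only reached the spread, since its CTRL libraries were equal at 103 CPM. The others were values without LP replicate 2. Signs changed for 24 miRNAs under median-ratio scaling, 23 under quantile normalization and 44 without LP replicate 1, none of them called. Depth limits miRNAs near 10 CPM, where miR-488-3p, for example, rested on 14 to 56 reads a library.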

Other observations

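Base composition was set beside the differences for the 271 miRNAs with a RefSeq sequence. The LP minus CTRL difference had a Spearman correlation of -0.201 with GC content, the difference between the LP replicates one of -0.138 and that between the CTRL replicates one of 0.0413, all across miRNAs of the same 4 libraries. The 87 miRNAs with the highest GC content (54.5% to 73.9%) had a median log2 difference of 0.02, against 0.11 in the 93 of middle content (44% to 52.4%) and 0.09 in the 91 with the lowest (23.8% to 43.5%), so the medians did not fall steadily with GC content. miR-101c (a mean of 127 CPM at CT18) and miR-382-3p (28.3 CPM) had a time-course median of 0, and miR-22-3p, at 11.5 CPM at CT18, had a time-course median of 1894. These 3 were chosen after their values were seen.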
